A study of Mus musculus with 8 samples.

Results

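The 9 genes described here form the core of the integrated stress response as read in mouse macrophage-like cells given probiotic bacteria: Chac1, Ddit4, Ddit3, Atf3, Atf4, Trib3, Sesn2, Ppp1r15a and Cebpg. They were selected on their treated over untreated ratios on slide 2 of these arrays and on the contrast of B. clausii with B. bifidum there, and every non-control probe whose transcript accession belongs to one of them was taken. This gave 12 of the 41174 distinct probes on the array, 2 for Trib3, 3 for Cebpg and 1 for each other gene. All 9 genes were among the 15203 that passed the filter on dim probes, and none of their spots was saturated.

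The cells were RAW 264.7, an established macrophage-like line from BALB/c mice. They were treated for 6 h at a multiplicity of infection of 1 with Bacillus clausii (3 arrays), Bifidobacterium bifidum (3 arrays) or Lactobacillus acidophilus (2 arrays), and on every array the RNA of treated cells, labelled with Cy5, was hybridised against RNA of time-matched untreated cells, labelled with Cy3. The labels used here give no strain designations and no word on whether the bacteria were alive. No dye was swapped, so a dye bias of a probe remains in its ratio to untreated cells, and although the design text calls the replicates biological, no array is tied to its own culture, so p-values measure only the spread between arrays.

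The 8 arrays lay on 2 slides. Slide 2 held replicates 1 and 2 of each of B. clausii and B. bifidum. Slide 1 held the third replicate of these strains and both L. acidophilus arrays, and was scanned with an extended range. L. acidophilus was therefore on slide 1 alone, beside 1 array of each other strain. The number of probes well above background in at least 1 channel was 12543 on B. clausii replicate 3 and 21508 to 26473 on the other 7 arrays. In untreated RNA, 8 of 10 macrophage markers were above background on all arrays (Adgre1, Csf1r, Itgam, Lyz2, Mpeg1, Cd14, Ptprc and Spi1), Fcgr1 on some and Mertk on none. None of 6 fibroblast, 6 lymphocyte and 5 epithelial markers was above background on all arrays, and 1, 1 and 2 of them were on none, the rest on some.

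In the integrated stress response, kinases that sense unfolded protein, amino acid shortage, double-stranded RNA or haem shortage phosphorylate the initiation factor eIF2. Most translation slows, while the mRNA of the transcription factor ATF4 is translated better. ATF4, with partners such as the C/EBP family, then drives genes of amino acid supply and further regulators, among them CHOP (the product of Ddit3) and ATF3, and a phosphatase subunit, GADD34 (the product of Ppp1r15a), ends the response by restoring eIF2. In macrophages the pathway is known to respond to bacterial products and to shape cytokine output. Control of ATF4 is largely translational, which an mRNA array does not see.

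The promoters of the members are shown because the pathway acts through short DNA elements. RefSeq sequences (GRCm38.p6), from 250 bases before to 50 bases after the annotated start, were found for 9 of 9 members. Capitals mark the C/EBP-ATF response element (TGATGNAA) and the palindromic cAMP response element (TGACGTCA), each searched on both strands. Of the 9, those printed are the pair with the highest ratios and 3 regulators downstream of ATF4.
Chac1, chr2:119350992-119351291, plus strand: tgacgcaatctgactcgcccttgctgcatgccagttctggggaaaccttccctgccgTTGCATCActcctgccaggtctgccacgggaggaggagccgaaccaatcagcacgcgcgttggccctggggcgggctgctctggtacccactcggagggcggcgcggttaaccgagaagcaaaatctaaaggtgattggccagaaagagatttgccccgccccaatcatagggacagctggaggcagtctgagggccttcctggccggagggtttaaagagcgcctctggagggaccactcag
Ddit4, chr10:59951721-59952020, minus strand: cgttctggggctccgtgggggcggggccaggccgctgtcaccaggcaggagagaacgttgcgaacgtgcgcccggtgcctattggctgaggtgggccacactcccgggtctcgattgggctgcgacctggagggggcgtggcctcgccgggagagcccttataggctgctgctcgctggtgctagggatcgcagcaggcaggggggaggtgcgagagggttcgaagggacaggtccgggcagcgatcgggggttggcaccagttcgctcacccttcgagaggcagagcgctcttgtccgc
Ddit3, chr10:127290543-127290842, plus strand: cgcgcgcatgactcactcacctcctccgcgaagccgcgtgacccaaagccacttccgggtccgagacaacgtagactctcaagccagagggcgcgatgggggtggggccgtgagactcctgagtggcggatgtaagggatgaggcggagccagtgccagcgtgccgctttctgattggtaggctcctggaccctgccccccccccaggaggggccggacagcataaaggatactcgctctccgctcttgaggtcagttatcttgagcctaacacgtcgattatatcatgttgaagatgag
Atf3, chr1:191183284-191183583, minus strand: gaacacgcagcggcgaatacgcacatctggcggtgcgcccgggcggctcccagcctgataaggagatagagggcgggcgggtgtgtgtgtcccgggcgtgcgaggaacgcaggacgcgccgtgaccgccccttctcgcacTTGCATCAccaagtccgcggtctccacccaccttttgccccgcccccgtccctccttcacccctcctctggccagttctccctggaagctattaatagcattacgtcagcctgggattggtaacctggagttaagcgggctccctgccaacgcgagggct
Ppp1r15a, chr7:45526219-45526518, minus strand: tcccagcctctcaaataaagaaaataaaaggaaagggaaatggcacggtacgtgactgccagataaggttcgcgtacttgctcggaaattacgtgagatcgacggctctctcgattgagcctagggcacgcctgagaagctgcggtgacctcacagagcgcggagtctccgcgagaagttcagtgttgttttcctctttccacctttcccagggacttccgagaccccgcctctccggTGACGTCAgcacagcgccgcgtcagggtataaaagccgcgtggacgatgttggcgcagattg

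The C/EBP-ATF response element, at which ATF4 pairs with C/EBP factors, occurred in 3 of the 9 windows, against 3.97% of 32851 mouse promoter windows of the same length. Counted from the start, it spanned positions -193 to -186 in Chac1, -110 to -103 in Atf3 and 15 to 22 in Trib3, each on the reverse strand. The cAMP response element stood in the Ppp1r15a window, at positions -12 to -5, and in 1.79% of all windows. The core of the hypoxia response element (ACGTG) was in 3 of the 9, those of Ddit4, Ddit3 and Ppp1r15a, and in 19.6% of all windows. The E-box CACGTG, which itself contains ACGTG, was in 0 of the 9 and in 7.15% of all windows. A match is a description of these letters and no evidence of binding.

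Values below are log2 ratios of treated (Cy5) over untreated (Cy3) RNA after loess normalization, unless another scale is named. For B. clausii and B. bifidum on slide 2 the members' ratios are a description without a test, since the genes were put together with these values in view. In RNA of a whole culture, fewer cells that express a gene and less RNA of it per cell cannot be told apart.

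Chac1 encodes an enzyme that cleaves glutathione and is a target of ATF4. Its spot read, before background correction and dye normalization, 1874 and 1934 intensity units in Cy5 and 412 and 386 in Cy3 on the B. clausii arrays of slide 2, against 281 and 254 in Cy5 and 343 and 308.5 in Cy3 on the B. bifidum arrays. The Chac1 log2 ratio was 3.11 and 3.19 with B. clausii and 0.18 and 0.13 with B. bifidum. Both B. clausii arrays stood far above both B. bifidum arrays. The mean ratio was 8.87-fold over untreated cells with B. clausii, the highest of the 15203 genes, and 1.11-fold with B. bifidum. The difference between the strains, 3.00 ± 0.06 (SE, n = 2 arrays each), was also the highest of all genes.

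On slide 1 the Chac1 log2 ratio was 0.49 in B. clausii replicate 3 and -0.03 in B. bifidum replicate 3, and 0.33 and 0.26 in the L. acidophilus arrays. The 3 B. clausii arrays thus did not agree on its size. Replicate 3 was the array with the fewest probes above background, and Chac1 read 236.5 units in Cy5 and 270.5 in Cy3 there, above background in both channels.

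Ddit4 encodes REDD1, a stress-induced inhibitor of the growth kinase complex mTORC1. Its log2 ratio was 2.21 and 2.25 with B. clausii and 0.48 and 0.48 with B. bifidum on slide 2, with both B. clausii arrays higher. The mean B. clausii ratio was 4.69-fold over untreated cells, rank 3 of 15203, and the B. bifidum ratio 1.39-fold. The strains differed by 1.75 ± 0.06 (SE, n = 2 each), rank 11. On slide 1 the Ddit4 log2 ratio was 0.06 in B. bifidum replicate 3 and -0.14 and -0.04 with L. acidophilus. The spot of B. clausii replicate 3 was marked as an outlier by the scanner software and left out. That spot read 657.5 units in Cy5 and 1030.5 in Cy3, and the software's own log2 ratio for it was -0.01. The slide 2 values with B. clausii therefore have no usable B. clausii value beside them on slide 1.

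**Figure D1:**
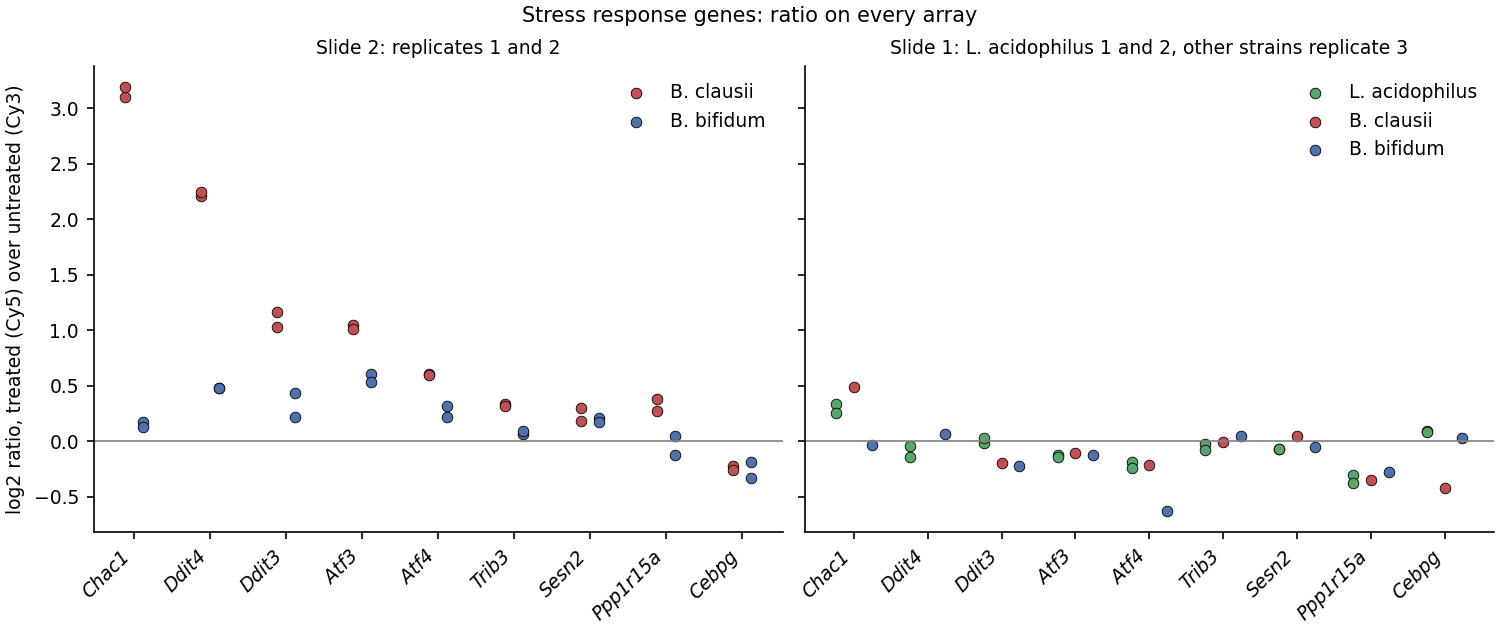
Log2 ratio of treated over untreated RNA for each of the 9 genes (x axis), 1 point per array, coloured by strain and marked by slide. On slide 2, Chac1 reached 3.11 and 3.19 and Ddit4 2.21 and 2.25 with B. clausii, above their B. bifidum values, and on slide 1 all members lay between -0.63 and 0.49.

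The transcription factors showed smaller ratios. Ddit3, which encodes the pro-apoptotic factor CHOP, had log2 ratios of 1.03 and 1.16 with B. clausii and 0.44 and 0.22 with B. bifidum on slide 2. The means were 2.13-fold and 1.26-fold over untreated cells, with B. clausii 0.77 ± 0.10 higher on the log2 scale (SE, n = 2 each) and no overlap of the arrays. On slide 1 the Ddit3 ratio was -0.20 in B. clausii replicate 3, -0.22 in B. bifidum replicate 3, and -0.02 and 0.03 with L. acidophilus.

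Atf3, an early stress-response repressor that damps cytokine genes in macrophages, stood out from Chac1 in its B. bifidum values. Its log2 ratio was 1.05 and 1.01 with B. clausii and 0.61 and 0.54 with B. bifidum on slide 2, a B. bifidum mean 1.49-fold over untreated cells. The strains differed by 0.46 ± 0.06 (SE, n = 2 each) without overlap. The Atf3 ratio was -0.11 and -0.12 in replicate 3 of B. clausii and of B. bifidum, and -0.13 and -0.14 with L. acidophilus.

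Atf4, the central factor of the response, had log2 ratios of 0.60 and 0.60 with B. clausii and 0.32 and 0.22 with B. bifidum on slide 2, a difference of 0.33 ± 0.06 (SE, n = 2 each). The B. clausii mean was 1.51-fold over untreated cells. On slide 1 the Atf4 ratio was -0.21 in B. clausii replicate 3, -0.63 in B. bifidum replicate 3, the lowest value of any member on any array, and -0.18 and -0.24 with L. acidophilus. Cebpg, a C/EBP protein that pairs with ATF4, had ratios below 0 on all 4 arrays of slide 2, at -0.23 and -0.26 with B. clausii and -0.33 and -0.19 with B. bifidum. On slide 1 the Cebpg ratio was -0.42 in B. clausii replicate 3, where Cy5 was not above background, 0.03 in B. bifidum replicate 3, and 0.09 and 0.09 with L. acidophilus. Its arrays overlapped between the strains, which differed by 0.02 ± 0.07 (SE, n = 2 each). The other probes of Cebpg gave means of -0.17 and 0.06 with B. clausii and -0.26 and -0.08 with B. bifidum. The probe at 0.06 was not above background in Cy5 on any of the 4 arrays of slide 2, and its sign is not read.

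Ppp1r15a, the gene of the feedback subunit GADD34, had log2 ratios of 0.27 and 0.38 with B. clausii and 0.04 and -0.12 with B. bifidum on slide 2, without overlap and with a difference of 0.37 ± 0.08 (SE, n = 2 each). On slide 1 every Ppp1r15a ratio was below 0, at -0.35 in B. clausii replicate 3, -0.28 in B. bifidum replicate 3, and -0.31 and -0.37 with L. acidophilus. Trib3, a pseudokinase that restrains ATF4 and CHOP, was read on slide 2 from its brighter probe. It stood at 0.34 and 0.32 with B. clausii and 0.06 and 0.09 with B. bifidum, a difference of 0.25 ± 0.06 (SE, n = 2 each). The dimmer Trib3 probe gave larger means there, 1.03 with B. clausii and 0.77 with B. bifidum, and a close difference between strains of 0.27. On slide 1 the brighter Trib3 probe was at -0.003 in B. clausii replicate 3, 0.05 in B. bifidum replicate 3, and -0.02 and -0.08 with L. acidophilus. Sesn2, a leucine sensor that restrains mTORC1, read 0.30 and 0.18 with B. clausii and 0.21 and 0.17 with B. bifidum on slide 2. Its arrays overlapped there, and the difference was 0.05 ± 0.07 (SE, n = 2 each). On slide 1 the Sesn2 ratio was 0.05 in B. clausii replicate 3, -0.05 in B. bifidum replicate 3, and -0.07 and -0.07 with L. acidophilus.

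Counted together, 7 of the 9 members were higher with B. clausii than with B. bifidum by limma's adjusted p and 0 were lower, beside 14.9% of all genes higher and 14.7% lower (29.6% in all). The same 7 had arrays that did not overlap, beside 34% of all genes in that direction and 30.4% in the other. The 2 without a call were Sesn2 and Cebpg. The count of 7 was 2 with the processed signals, where 465 of 15203 genes were called, and 2 with the deposited table, where 395 were. It was 0 with median centring, as for all genes (3 members and 748 of 15203 genes at an unadjusted limma p under 0.05). Over all 8 arrays it was 1, beside 4 genes without a slide term and 233 with slide as a block. Against untreated cells, 8 members were called higher and 1 lower with B. clausii, beside 25.6% and 30.3% of all genes (55.9% in all). With B. bifidum 6 were called higher and 1 lower, beside 15% and 23.7% (38.7% in all). The median member differed by 0.37 between the strains on the log2 scale, against 0.02 over all genes. Nothing is read from these counts or medians, because the members were assembled on this contrast.

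**Figure D2:**
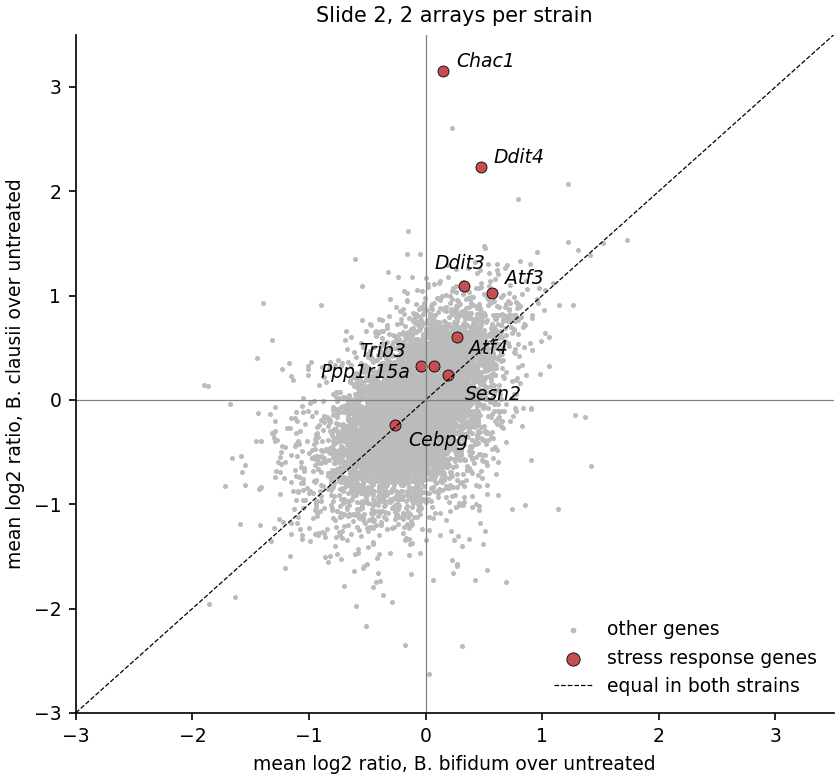
Mean log2 ratio with B. clausii against that with B. bifidum on slide 2 for all genes (grey) and the 9 members (labelled). Chac1 lies at 3.15 with B. clausii and 0.15 with B. bifidum, and Cebpg at -0.24 and -0.26.

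The sign of the smaller ratios to untreated cells depended on how the arrays were scaled. With each array centred on its median in place of loess, the median of all genes (brightest probes) lay at -0.30 with B. clausii and -0.42 with B. bifidum. Chac1 was then at 2.49, Ddit4 at 1.57, Ddit3 at 0.59 and Atf3 at 0.34 with B. clausii, while Atf4, Trib3, Sesn2 and Ppp1r15a turned below 0, and 6 of the 9 stood above the median gene. With B. bifidum all 9 lay below 0 on this scale and 4 of them stood above the median gene. The difference between strains kept its direction for 8 of the 9 and turned to -0.12 for Cebpg. The scanner software's own processed signals put Chac1 at 3.71 and 4.02 with B. clausii and 0.33 and 0.39 with B. bifidum on slide 2.

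**Figure D3:**
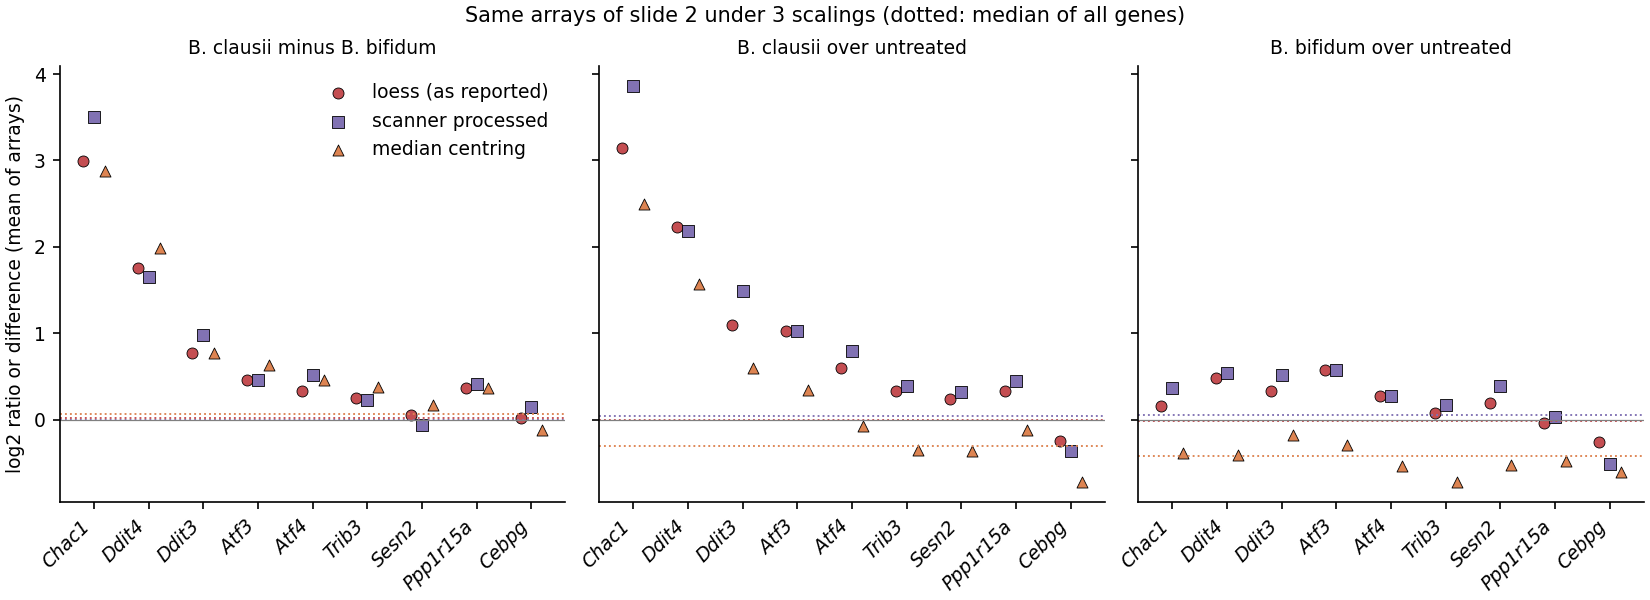
Mean log2 value of each member on slide 2 under loess, the scanner software's processed signals and median centring, for B. clausii minus B. bifidum, B. clausii over untreated and B. bifidum over untreated. Dotted lines give the median of all genes. Chac1, Ddit4, Ddit3 and Atf3 stayed above 0 under B. clausii in all 3, while Atf4, Trib3, Sesn2 and Ppp1r15a turned below 0 with median centring, as did every member with a positive ratio under B. bifidum.

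L. acidophilus took no part in the contrast on which the members were assembled, so its ratios were tested, in a limma fit of the slide 1 arrays with 1 residual degree of freedom. None of the 9 passed, and 0% of all genes did. At an unadjusted limma p under 0.05 stood 4 members and 3925 genes. The nearest were Ppp1r15a, at -0.31 and -0.37 (mean -0.34 ± 0.05, SE, 95% interval -0.47 to -0.21, limma adjusted p = 0.0963), and Chac1, at 0.33 and 0.26 (mean 0.30 ± 0.05, SE, 95% interval 0.16 to 0.43, limma adjusted p = 0.0975). Atf4 averaged -0.21 (limma adjusted p = 0.11) and Ddit4 -0.09 (limma adjusted p = 0.315). Ppp1r15a had the same sign on both arrays of the other strains on slide 1. Chac1, Ppp1r15a and Atf4 passed where a probe had to be above background on every array, as did 2770 of 8266 genes. Those 3 and Atf3 passed with a robust intensity trend, as did 4767 of 15203 genes. Median centring put Ddit4 at 0.54 (limma adjusted p = 0.0232), with the median of all genes at 0.14.

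The Cy3 level of untreated RNA differed between the slides in several members, read as the log2 processed signal minus the array's 75th percentile. Ddit4 stood at 5.88, 6.05 and 6.23 in untreated cells on 3 arrays of slide 1, against 3.66 to 3.70 on the 4 arrays of slide 2, a 5.16-fold difference of means. The outlier spot of B. clausii replicate 3, left out, read 5.50 in Cy3. The ratio of Ddit4 on slide 2 was thus formed over a lower untreated level than on slide 1. What this does to the ratio was not tested. In Cy5, the Ddit4 level on slide 2 was 5.84 and 5.90 in B. clausii-treated cells and 4.17 and 4.25 in B. bifidum-treated cells. No dye was swapped, so these Cy5 levels are not compared with the Cy3 levels of slide 1.

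Untreated Ppp1r15a was at 0.92 to 1.53 on slide 1 and -0.40 to 0.015 on slide 2, a 2.58-fold difference, and Ddit3 at 0.58 to 0.99 on slide 1 and -0.52 to 0.08 on slide 2, a 1.80-fold difference. Atf4 was 1.45-fold higher on slide 1, also without overlap. Sesn2 went the other way, at -0.69 to -0.13 on slide 1 and 0.70 to 1.22 on slide 2. Atf3 overlapped through B. clausii replicate 3 (1.64-fold higher on slide 1 with it and 2.12-fold without it). Chac1, at 0.22 to 0.58 on slide 1 and 0.08 to 0.30 on slide 2, overlapped, as did Trib3 and Cebpg. Ddit4, on 7 arrays, and Ppp1r15a were over 2-fold higher on slide 1 without overlap and Sesn2 over 2-fold lower. Of 6734 genes measured on all arrays, which do not include Ddit4, 10.9% and 4.47% were so. Slide, extended range scanning and the untreated cultures cannot be told apart here, and no test was made.

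**Figure D4:**
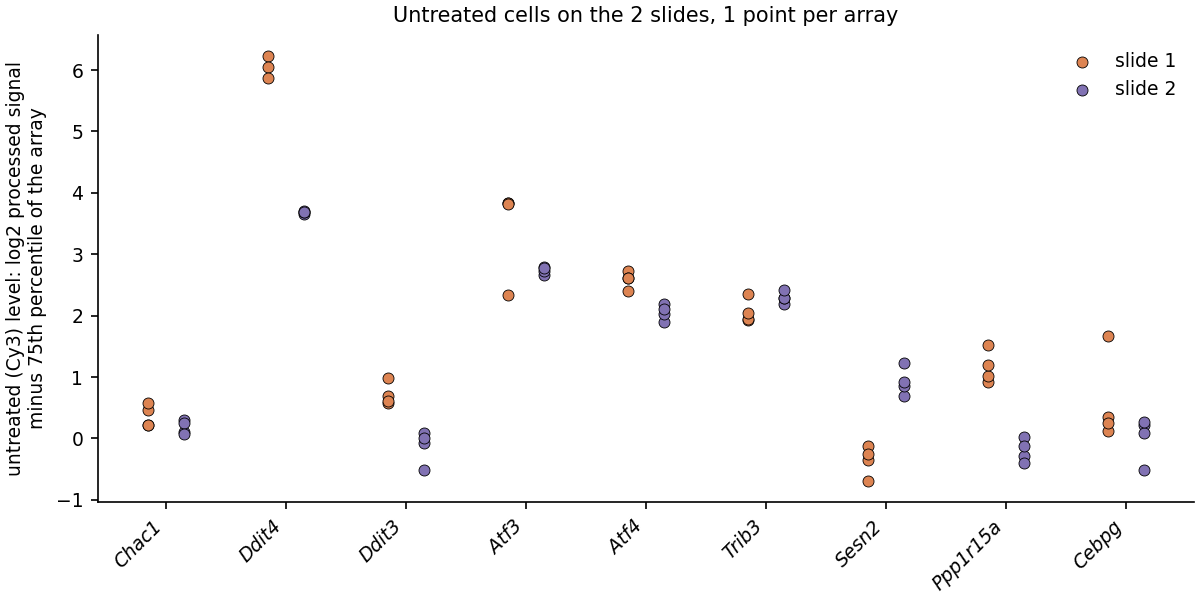
Cy3 level of untreated cells for each member, 1 point per array, slide 1 left of slide 2, as log2 processed signal minus the array's 75th percentile. Ddit4 sits at 5.88 to 6.23 on slide 1 and 3.66 to 3.70 on slide 2, while Chac1 overlaps.

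The genes around the members were read from 10 pathway lists, chosen with earlier results of these data known. Together they held 171 distinct tested genes, of which 41 were higher and 39 lower with B. clausii than with B. bifidum on slide 2 (limma adjusted p under 0.05). With the scanner software's processed signals 5 were higher and 6 lower, and with median centring none passed. On that scale 748 of 15203 genes had an unadjusted limma p under 0.05, no larger a share than this threshold gives without any difference. Over all 8 arrays with slide as a block, 3 were higher and 2 lower. Leaving out an array gave 28 to 35 higher and 24 to 36 lower, the fewest without B. bifidum replicate 1 or 2. Values are those of a gene's brightest probe, and another probe was much smaller for Creb1 (0.15), Dnajc3 (0.18), Slc7a11 (-0.32) and Eif2s2 (0.02). The lists are described by their counts, beside the 14.9% higher and 14.7% lower of all genes, and no call is made on a list.

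The ATF6 and XBP1 arms of the unfolded protein response, the branches that supply chaperones of the endoplasmic reticulum, had 9 of 20 genes higher and 2 lower, with a median of 0.19. Among the higher were Creld2, at 0.70 and 0.77 with B. clausii and -0.25 and -0.24 with B. bifidum (difference 0.98 ± 0.06, SE, limma adjusted p = 0.00113), the stress kinase inhibitor Dnajc3 (0.85), the secreted factor Manf (0.75) and the disulfide isomerase Pdia6 (0.70). Against untreated cells on the loess scale, 10 of these 20 were called higher and 4 lower with B. clausii (25.6% and 30.3% of all genes). With B. bifidum 1 was called higher and 7 lower (15% and 23.7% of all genes). With median centring, 1.26% of all calls with B. clausii and 0.196% of those with B. bifidum were higher. Between the strains, only Creld2 of the 20 was called with the processed signals or the deposited table, higher with B. clausii. With median centring 0 of the 20 were called between the strains. Over all 8 arrays with slide as a block, 1 was higher and 1 lower. Without B. bifidum replicate 1 or 2, 6 of the 20 were higher with B. clausii than with B. bifidum.

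Other ATF4 and CHOP target genes moved both ways, 5 of 22 higher and 8 lower. Herpud1, of protein degradation at the endoplasmic reticulum, was at 1.18 and 1.18 with B. clausii and -0.20 and -0.26 with B. bifidum (difference 1.41 ± 0.06, SE, limma adjusted p = 0.000719). The stress-induced nuclear protein Nupr1 (1.27) and the secreted hormone Stc2 (1.14) were also higher, while the oxidase Ero1a, a known CHOP target, was lower, at -0.86 and -0.95 with B. clausii and 0.48 and 0.58 with B. bifidum (difference -1.43 ± 0.07, SE, limma adjusted p = 0.00094).

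ATF4 target genes of amino acid supply were 4 of 19 higher and 4 lower. The leucine transporter gene Slc7a5 (0.81), the mitochondrial folate enzyme Mthfd2 (0.62) and the serine synthesis enzyme Psph (0.61) were higher with B. clausii. The cystine transporter gene Slc7a11 was lower, at -0.70 and -0.94 with B. clausii and 0.69 and 0.37 with B. bifidum (difference -1.34 ± 0.13, SE, limma adjusted p = 0.00245). Without B. bifidum replicate 1 or 2, 4 were higher and 1 lower. Enzymes that charge tRNA had 2 of 13 higher (Tars and Lars) and 2 lower (Yars and Aars). Leaving out an array left 0 higher and 0 to 1 lower. Probes of Tars ran from -0.40 to 0.28 and those of Lars from -0.03 to 2.34.

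Of 15 genes for eIF2 kinases and the initiation machinery, 1 was higher and 4 were lower (0 to 1 and 2 to 3 without an array). Impact, which restrains the amino acid sensor GCN2, was lower by a difference of -0.80 and the double-stranded RNA kinase Eif2ak2 by -0.71, while the eIF2 subunit gene Eif2s2 was higher by 0.47. Eif2ak4, the gene of GCN2 itself, was lower by its brightest probe (-0.32), with probes of unlike sign.

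Glutathione genes, the substrate side of Chac1, had 3 of 13 higher and 5 lower. Gclm, a subunit of the enzyme that limits glutathione synthesis, was at -0.93 and -1.06 with B. clausii and 0.49 and 0.36 with B. bifidum (difference -1.43 ± 0.08, SE, limma adjusted p = 0.00105). The peptidase gene Anpep (-0.85) and the lipid peroxide reductase Gpx4 (-0.51) were also lower. Around Ddit4 and Sesn2, 3 of 22 genes of mTORC1 control were higher and 2 lower (0 to 1 and 2 to 3 without an array). The Rag GTPase gene Rragc (-1.09) and the mTORC1 scaffold Rptor (-0.45) were lower, and Rheb, the activator of mTORC1, was higher by 0.24. Keap1, a gene of the oxidative stress response that this list also holds, was higher by 0.335.

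Ddit4 is also induced by hypoxia and p53. Of 17 hypoxia-inducible genes, 2 of them with saturated spots on slide 2, 5 were higher with B. clausii than with B. bifidum and 4 lower. Ankrd37 (0.90), the oxygen sensor Egln3 (0.70) and the angiogenic factor Vegfa (0.66) were higher, and Pdk1 was lower (-0.68), with probes that disagreed in sign. Against untreated cells 11 of the 17 were called higher and 4 lower with B. clausii (25.6% and 30.3% of all genes), and 11 higher and 2 lower with B. bifidum (15% and 23.7%), counts that rest on the loess scale. Of 15 p53 target genes 5 were higher and 5 lower (2 to 3 and 3 to 5 without an array), with Cdkn1a higher (0.56) and Trp53inp1 (-1.58), Phlda3 (-0.73) and Mdm2 (-0.50) lower, the probes of Mdm2 with unlike signs. Among bZIP partner factors, 7 of 23 were higher and 7 lower, with Creb1 (1.05), Jund (0.90) and Junb (0.86) higher and Cebpd (-0.88) lower. With L. acidophilus 0 genes of the 10 lists passed in limma, as for all genes.

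**Figure D5:**
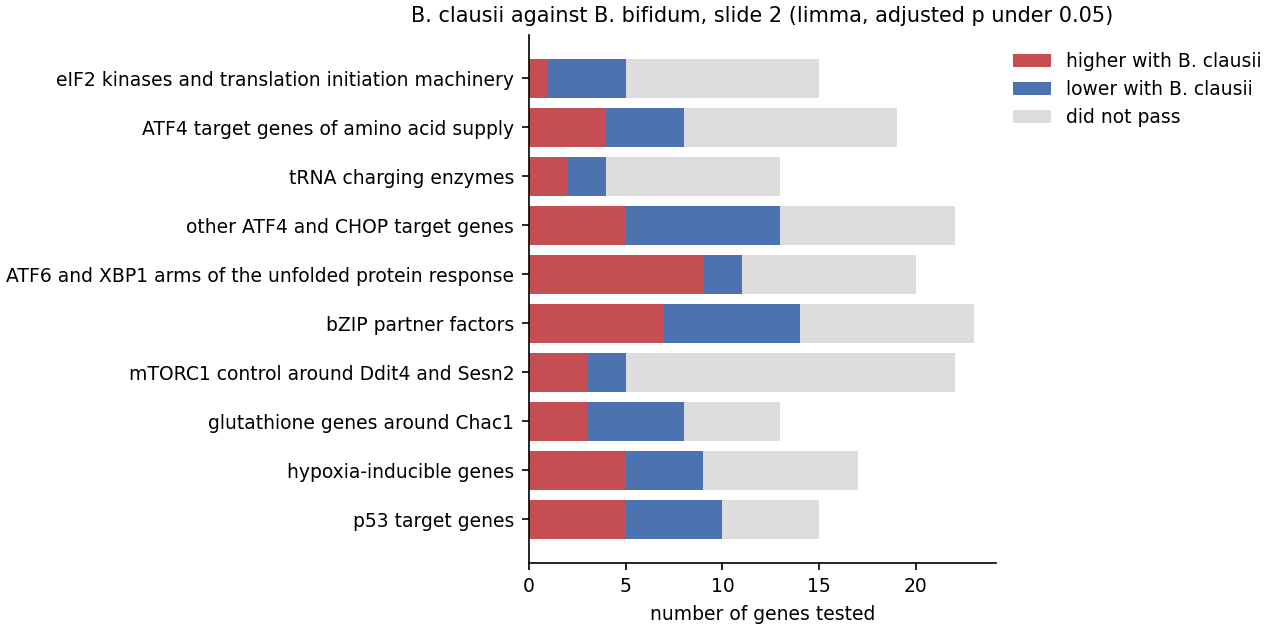
Number of tested genes in each of the 10 lists that were higher (red) or lower (blue) with B. clausii than with B. bifidum on slide 2, or did not pass (grey), by limma's adjusted p. The unfolded protein response list has 9 higher and 2 lower, and the other ATF4 and CHOP target genes 5 higher and 8 lower.

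Among the genes whose ratios lay nearest to those of Chac1 over the 8 arrays, by root mean square difference of the log2 ratio, were Adgre5 (0.37), Neat1 (0.75), Crip2 (0.80) and Rmrp (0.81), of 14408 candidates. Candidates were named genes measured on all 8 arrays, so Ddit4, left out on B. clausii replicate 3, could not be listed. Adgre5, which encodes the adhesion receptor CD97, was at 2.63 and 2.59 with B. clausii and 0.17 and 0.28 with B. bifidum on slide 2, and between -0.10 and 0.17 on slide 1. For Ddit4 over 7 arrays the nearest included Adgre5 (0.25), Neat1 (0.29), Fdft1 (0.42) and Rmrp (0.44). The nuclear RNA Neat1 had ratios of 1.94 and 1.91 with B. clausii and 0.78 and 0.81 with B. bifidum on slide 2. Rmrp was at 2.05 and 2.09 with B. clausii and 1.27 and 1.17 with B. bifidum there. With B. bifidum, Neat1 and Rmrp thus lay above Chac1 (0.18 and 0.13), while Crip2 lay below it (-0.18 and -0.12). The arrays behind these values share 2 slides, and the likeness is a description.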

How the data were processed

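RNA of RAW 264.7 cells treated with 1 of 3 bacterial strains was set against RNA of untreated cells on 8 Agilent 2-colour arrays, Cy5 treated and Cy3 untreated per the labels. The deposited scanner files hold spot intensity and the software's log10 ratio, made with Feature Extraction 10.7.3.1, per the file headers (10.5.1.1 in the submitters' processing notes). The authors' deposited table equalled that log10 ratio to within 0.005.

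The analysis used R 4.3.3 with limma 3.58.1. Median spot signals were taken, since the planned mean signal is not a column of the files used here. Background was corrected with normexp (offset 50), log2 ratios were computed from the deposited intensities and normalized by loess with controls at weight 0, and spots marked as outliers were dropped. Spots of a probe were averaged, probes well above background on at least 2 arrays in either channel were kept (28598), and each of 15203 genes took its brightest probe, a rule under which different probes can disagree. Names came from accessions matched to RefSeq (GRCm38.p6), found for 29169 of 43379 probe features. The files' own build is another, and the promoter coordinates come from RefSeq alone.

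Slide 2 was fitted with a mean per strain for B. clausii and B. bifidum, and slide 1 for L. acidophilus, with lmFit and eBayes and Benjamini-Hochberg adjustment over all genes at 0.05. The number of arrays limits precision. Replicate numbers were not treated as pairing: deviations of the same number correlated at 0.075 over 15172 genes, with 2 pairs. Named genes were all members, up to 4 passing genes with the largest difference in each list, and the 5 nearest in ratio to Chac1 and to Ddit4, of which 1 is not reported here. The members and lists were chosen with earlier results of these data known. Alternatives in background, scaling, filter, probe choice, test and arrays are given at the end.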

Additional observations from a re-analysis of the deposited data

How the results depend on the processing

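Between B. clausii and B. bifidum, 4505 genes and 7 members were called in limma. The counts were 465 and 2 with the scanner software's processed signals, and 395 and 2 with the authors' deposited table. They were 0 and 0 with median centring (748 of 15203 genes and 3 members at an unadjusted limma p under 0.05). Using all 8 arrays they were 4 and 1 without a slide term, and 233 and 1 with slide as a block. Of the calls, 50.4% were higher with B. clausii as reported, against 33.1% and 33.2% with the processed signals and the deposited table. Leaving out an array gave 2343 to 3977 genes and 4 to 6 members, the lowest without B. bifidum replicate 2. With B. clausii, 8494 genes and 9 members were called against untreated cells, against 5575 genes with processed signals, 5257 with the deposited table, 4059 and 3 members with median centring (1.26% of calls higher, against 45.8% as reported), 721 and 2 with all 8 arrays and no slide term, and 3833 genes with slide as a block. Leaving out an array gave 6900 to 7957 genes and 8 to 9 members. With B. bifidum, 5882 genes and 7 members were called, against 2895 and 2 with processed signals, 2942 and 2 with the deposited table, 2 members with median centring (0.196% of calls higher, against 38.8%), 262 and 0 with all 8 arrays and no slide term (1 member at an unadjusted limma p under 0.05), and 2125 and 1 with slide as a block. Without an array there were 2726 to 6291 genes and 2 to 6 members, the lowest without B. bifidum replicate 1. With L. acidophilus, 0 genes and 0 members passed (3925 and 4 at an unadjusted limma p under 0.05), against 1614 and 1 with median centring, 2770 and 3 with a strict filter on dim probes, 4767 and 4 with a robust intensity trend, and 416 genes with slide as a block. Leaving out an L. acidophilus array leaves no residual degree of freedom and was not run. With the replicate number as a block, 4335 genes and 7 members were called between the strains, and Yars, Aars and Rheb no longer passed. The same number is not known to mark a shared culture or day.

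Directions that turned were these, and the cause was not tested. Between the strains, Sesn2 was -0.068 with processed signals, -0.066 with the deposited table and -0.012 to 0.11 without an array. Cebpg was -0.12 with median centring, -0.14 with all 8 arrays in either fit, and -0.058 to 0.09 without an array. Of the list genes, Aars was 0.12 with median centring and Tars -0.06 by the mean of its probes. With median centring, B. clausii gave Atf4 -0.079, Trib3 -0.35, Sesn2 -0.36 and Ppp1r15a -0.12, and B. bifidum gave Chac1 -0.39, Ddit4 -0.41, Ddit3 -0.18, Atf3 -0.29, Atf4 -0.53, Trib3 -0.73 and Sesn2 -0.53. Ppp1r15a with B. bifidum was 0.033 with processed signals and deposited table and -0.12 to 0.044 without an array. With all 8 arrays, B. bifidum gave Atf4 -0.03 without a slide term and, with slide as a block, Chac1 -0.15, Ddit3 -0.008 and Atf4 -0.17. With L. acidophilus, Ddit3 was -0.024 with processed signals and deposited table, Cebpg was -0.049 by the mean of its probes, and median centring gave Ddit4 0.54, Atf3 0.28, Atf4 0.091, Trib3 0.23 and Sesn2 0.087. Slide as a block gave Ddit4 0.12, Atf3 0.32, Atf4 0.22, Trib3 0.039 and Sesn2 0.037.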
